A study of Saccharomyces cerevisiae with 3 samples.

Results

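Of the 5574 yeast genes with a value on at least 1 array, 10 are described here, those of glycerol uptake, use and synthesis. The rule that picks them is a list of gene symbols, matched to the platform annotation, and uses no measured value, and all 10 were matched. These are STL1 (YDR536W), FPS1 (YLL043W), GUP1 (YGL084C), GUP2 (YPL189W), GUT1 (YHL032C), GUT2 (YIL155C), GPD1 (YDL022W), GPD2 (YOL059W), GPP1 (YIL053W) and GPP2 (YER062C). They occupied 12 spots, since GUT2 and GUP2 had 2 spots each and the other 8 genes 1 each. All 10 genes were measured on the arrays G0 and Y5, and 8 on the array Y10. There the inferred row numbers left no place for the spot of FPS1 and no sufficiently sure place for that of GPP1.

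Budding yeast can take up glycerol and burn it as a nonfermentable carbon source, and it also makes glycerol from sugar. In use, glycerol kinase and then a mitochondrial glycerol 3-phosphate dehydrogenase turn it into dihydroxyacetone phosphate, an intermediate shared with glycolysis and gluconeogenesis. In synthesis, a cytosolic dehydrogenase and then a phosphatase run from dihydroxyacetone phosphate to glycerol, which disposes of surplus NADH when oxygen is scarce and protects the cell against osmotic stress. Genes of use and of active uptake are known to be repressed by glucose.

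The study moved yeast quickly off a carbon source that it can ferment onto a nonfermentable one, known from the published work to be glucose and glycerol, though the labels name neither. Per the labels, each of the groups G0, Y5 and Y10 is 1 two-colour array, with RNA of the messenger ribonucleoprotein fraction (mRNP) in Cy3 and RNA of the fraction named Poly in Cy5, which is taken to mean polysomes. The labels used here do not state the strain, the culture or the unit of the numbers in the names, and all 3 samples share a submitters' note of stress by nutrient limitation. Values are given as log2 ratios after the median of the array was set to 0, the base being an assumption, and a higher value is read as a larger share of the mRNA on polysomes. That direction is an assumption from the dyes, under which GCN4, an mRNA held back in well-fed cells, lay at percentile 5.82 on G0. The array titles put mRNP before Poly and could be read the other way. If the assumption is wrong, every sign below turns.

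There were no replicate arrays, so no difference was tested, and a difference of at least 1 log2 unit was used as a fixed size. The only error that could be measured was that between repeat spots. From genes with 2 spots, the SD of a difference resting on 1 spot was 0.448 for Y5 minus G0 (879 genes), 0.638 for Y10 minus G0 (405 genes) and 0.565 for the step from Y5 to Y10 (408 genes), which leaves out the spread between cultures and between hybridisations. The row numbers of Y10 were inferred from the data rather than read from the table. Across spots Y10 and Y5 correlated with r = 0.463 after renumbering, against r = 0.0155 by deposited row number.

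How well the renumbering worked differed between the places where these genes were printed. Over the 32 sectors of the array the correlation of Y10 with Y5 had a median of 0.592 and ranged from 0.109 to 0.774. GPD2 (r = 0.744), GUP1 (0.702), GUT2 (0.634) and GUP2 (0.588) lay in sectors that matched near or above that median. STL1 and GPD1 shared a sector at 0.370, GPP2 lay in a sector at 0.233, and GUT1 lay in the sector with the lowest value, 0.109. Over the run of 48 spots that holds each, the correlation was 0.606 for STL1, 0.211 for GPD1, 0.0976 for GPP2 and 0.0870 for GUT1. The Y10 values of GPP2 and GUT1 therefore rest on a numbering that the neighbouring spots barely bear out, and that of GPD1 on a weak match. Between Y5 and G0, whose row numbers were not inferred, the correlation was 0.508 in the GUT1 sector and 0.409 in the GPP2 sector. It was only 0.254 in the sector of STL1 and GPD1, below the 0.370 of Y10 with Y5. These correlations are of different pairs of arrays, so the one does not account for the other. Whether GPD1 is misplaced on Y10 was not tested.

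**Figure D1:**
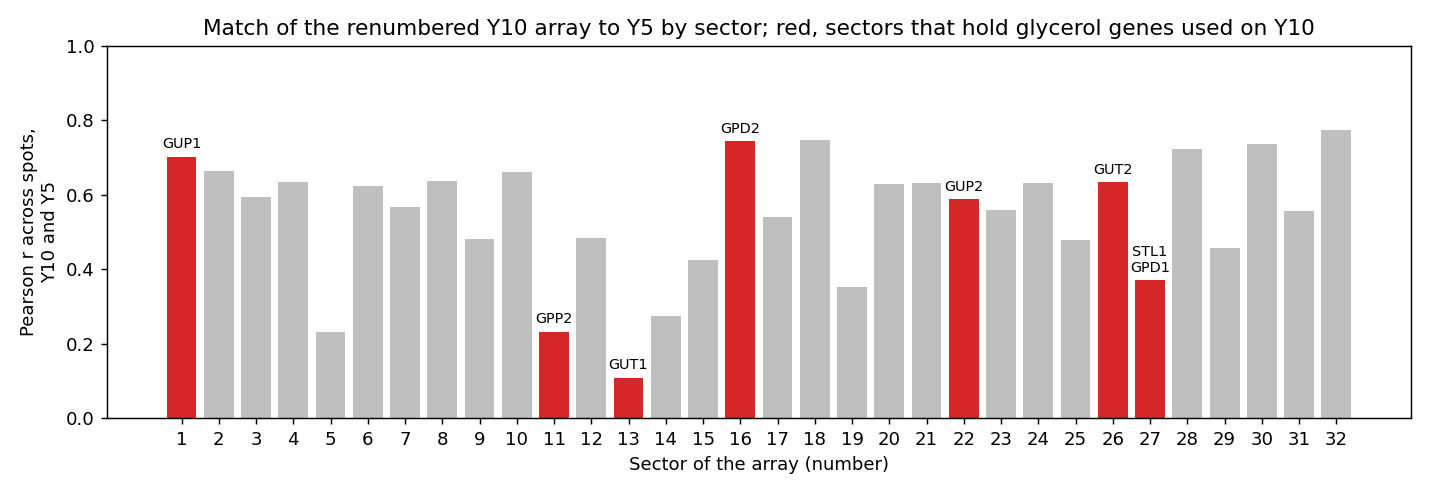
Pearson correlation across spots (vertical axis) between the renumbered Y10 array and the Y5 array, for each of the 32 sectors of the array (horizontal axis), with red bars for sectors that hold glycerol genes used on Y10. GUT1 sits in the sector with the lowest correlation (0.109) and GPP2 in one at 0.233, whereas GPD2 sits in one at 0.744.

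The genes of glycerol synthesis differed widely from each other on G0 and Y5. GPD1 and GPP2, the isoforms known to be induced by osmotic stress, were high on G0 and much lower on Y5, and their Y10 values, from places where the renumbering matched weakly, were high again. Their paralogs GPD2 and GPP1 are known for their part in redox balance without oxygen. They lay at percentiles 55.8 and 69.7 of all genes on G0 and higher on Y5, at 91.0 and 97.0.

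GPD1, a cytosolic NAD-dependent glycerol 3-phosphate dehydrogenase that catalyses the first step of glycerol synthesis, had log2 ratios of 1.91 (G0), −0.56 (Y5) and 0.87 (Y10). Among all genes it lay at percentile 98.9 on G0, at 18.5 on Y5 and at 95.6 on Y10. G0 was the high array and Y5 the low one. The difference Y5 minus G0 was −2.47 log2 units, a 5.55-fold lower ratio on Y5. That is 5.52 times the SD between repeat spots, and only 0.577% of all genes had a lower difference. Y10 differed by −1.04 from G0 and by 1.43 from Y5, which is 1.64 and 2.53 times the SD for those differences. The whole sector that holds GPD1 also had a lower median on both later arrays than on G0, with a difference of −0.62 for Y5 and −0.51 for Y10. With each sector centred on its own median, GPD1 differed by −1.85 for Y5 minus G0 and 1.31 for Y10 against Y5, while Y10 minus G0 was −0.53. After quantile normalization Y10 minus G0 was −0.42.

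GPD2, the second cytosolic isoform of the same enzyme, ran the other way. Its log2 ratios were 0.10 (G0), 0.85 (Y5) and 0.66 (Y10), so both later arrays stood above G0 and near each other. It was 0.75 higher on Y5 than on G0 and 0.56 higher on Y10 than on G0, short of 1 log2 unit in both. The isoforms therefore changed places. GPD1 minus GPD2 was −1.41 on Y5, against 1.81 on G0, and 0.21 on Y10, where the SD of a gap between 2 single spots was 0.557, 0.641 and 0.607 on the same arrays. The Y5 minus G0 difference of GPD1 was thus lower than that of GPD2, by −3.22 log2 units. With each sector centred on its own median, the differences lay closer together, at −1.85 for GPD1 and 0.63 for GPD2. The gap on Y10 rests on the weakly matched place of GPD1.

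GPP2, a glycerol 3-phosphate phosphatase that releases glycerol in the last step, had a log2 ratio of 1.03 on G0, −0.22 on Y5 and 0.89 on Y10. Y5 was the low array, as for GPD1. The difference Y5 minus G0 was −1.24 (2.37-fold lower on Y5, 2.78 times the SD between repeat spots), at percentile 7.12 of all genes. Y10 stood 1.11 above Y5 (percentile 97.4) and differed from G0 by −0.13. With sector centring the Y5 minus G0 difference was −1.31 and Y10 minus Y5 was 0.81, no longer past 1 log2 unit. The poor match of its sector, given above, applies to each of these Y10 figures.

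GPP1, the other phosphatase, had a log2 ratio of 1.37 on Y5 and 0.36 on G0, at percentiles 97.0 and 69.7. It was 1.01 higher on Y5, a 2.01-fold higher ratio and 2.25 times the SD between repeat spots. This value lay barely past the fixed size and was 0.96 after quantile normalization and 0.95 with sector centring. GPP2 minus GPP1 was −1.59 on Y5, against 0.67 on G0. The coding sequences of GPP1 and GPP2 are known to be very similar, so that each spot may also have bound RNA of the other gene. How far this happened was not tested, and the 2 spots gave opposite differences.

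**Figure D2:**
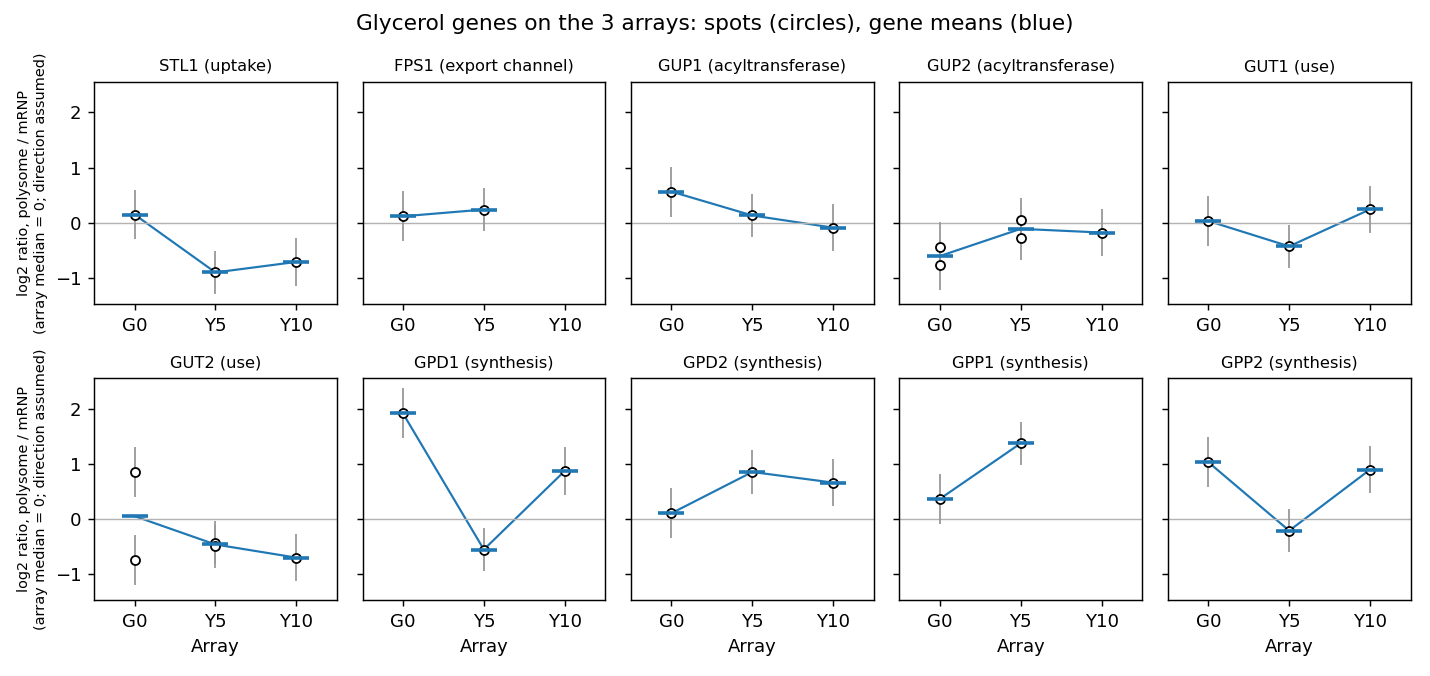
Log2 ratio of polysome over mRNP RNA (vertical axis, array median at 0, direction assumed) of the 10 glycerol genes on the arrays G0, Y5 and Y10 (horizontal axis). Circles are spots with the SD of 1 spot between repeat spots, blue bars and lines are gene means. GPD1 and GPP2 have their lowest value on Y5 (−0.56 and −0.22), GPD2 and GPP1 stand higher there (0.85 and 1.37), and the 2 spots of GUT2 lie far apart on G0.

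The genes of glycerol use stood near the array median on G0 and somewhat below it on Y5. Neither passed 1 log2 unit in any comparison when spots were averaged. GUT1, the glycerol kinase, had a log2 ratio of 0.03 on G0, −0.43 on Y5 and 0.24 on Y10. Its differences were −0.46 for Y5 minus G0 and 0.21 for Y10 minus G0, which are 1.03 and 0.33 times the SD between repeat spots, and Y10 stood 0.67 above Y5. The Y10 figures carry the poorest numbering of the group.

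GUT2, the mitochondrial glycerol 3-phosphate dehydrogenase that passes electrons to the respiratory chain, averaged 0.05 on G0, −0.47 on Y5 and −0.71 on Y10. These means hide a disagreement on G0, and whether 1 of the spots is misassigned in the platform annotation was not tested. There its spots read 0.85 and −0.76, a gap of 1.60 that only 3.06% of 881 genes with 2 spots reached. On Y5 they read −0.50 and −0.43, a gap of 0.07. Only the spot that was high on G0 had a place on Y10, where it read −0.71. That spot alone differed by −1.35 for Y5 minus G0 and by −1.55 for Y10 minus G0, whereas the other spot was 0.32 higher on Y5 than on G0. The averaged differences were −0.51 for Y5 minus G0 and −0.75 for Y10 minus G0, and the Y10 figure sets 1 spot against the mean of 2 on G0. Restricted to the spot on both arrays, a choice made after the data were seen, GUT2 passes 1 log2 unit for Y10 minus G0. The sector of that spot had a lower median on Y10 than on G0, by a difference of −0.67, and relative to it the spot differed by −0.88.

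STL1, the proton symporter that carries glycerol into the cell, had a log2 ratio of 0.15 on G0, −0.90 on Y5 and −0.71 on Y10. Both later arrays lay below G0 and close to each other, at percentiles 8.48 and 10.03 of all genes. The difference was −1.05 for Y5 minus G0 (2.07-fold, 2.35 times the SD between repeat spots), −0.86 for Y10 minus G0 and 0.19 between Y10 and Y5. It was printed in the same sector as GPD1, whose median was itself lower on Y5, and with sector centring the STL1 difference was −0.43 for Y5 minus G0 and −0.35 for Y10 minus G0. It was also just short of 1 log2 unit with the arrays scaled to one spread (−0.99) or after quantile normalization (−0.98). FPS1, the channel through which glycerol leaves the cell, had 0.24 on Y5 and 0.12 on G0, a difference of 0.12 that is well within the SD between repeat spots.

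GUP1 and GUP2 are membrane-bound acyltransferases that owe their names to an early link with glycerol uptake. GUP1 had a log2 ratio of 0.56 on G0, 0.13 on Y5 and −0.09 on Y10. GUP2 had −0.61 on G0, −0.11 on Y5 and −0.18 on Y10, with spots of −0.76 and −0.45 on G0 and of 0.06 and −0.28 on Y5. The G0 value was thus the highest of the 3 for GUP1 and the lowest for GUP2. Their differences were −0.43 and 0.49 for Y5 minus G0, and −0.65 and 0.43 for Y10 minus G0, all short of 1 log2 unit. GUP1 minus GUP2 was 0.24 on Y5 and 0.09 on Y10, against 1.17 on G0.

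**Figure D3:**
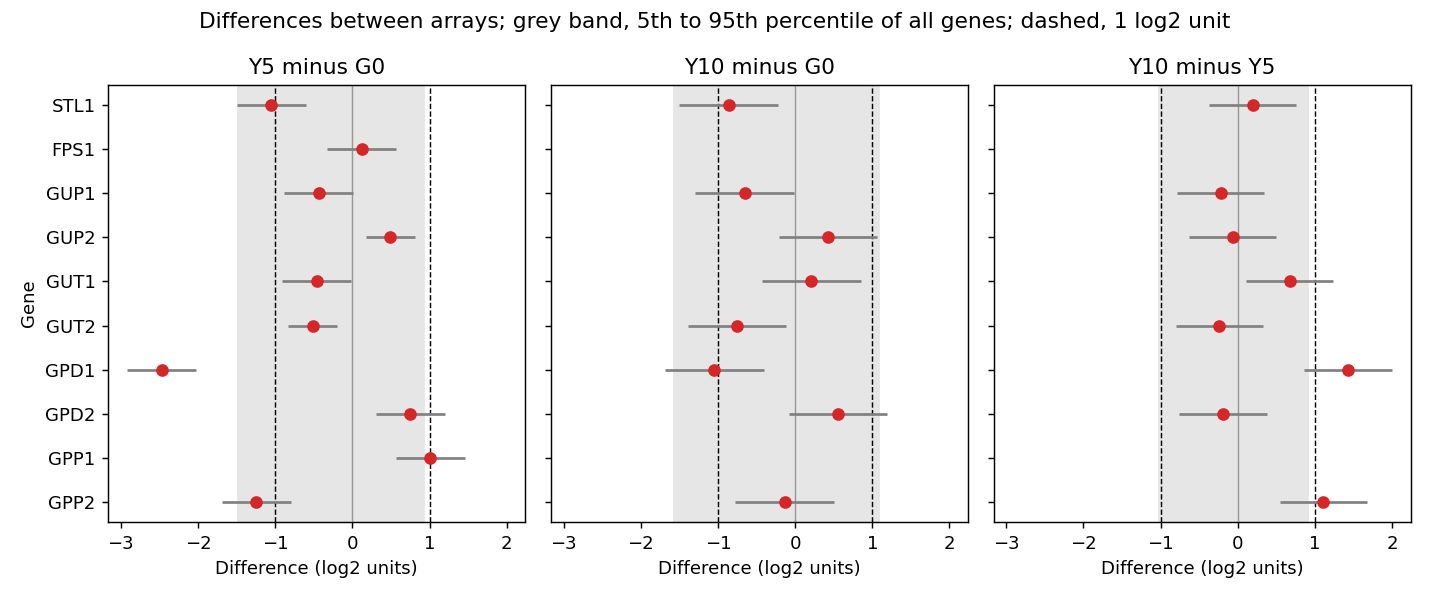
Differences between arrays in log2 units (horizontal axis) for each glycerol gene (vertical axis), with error bars of 1 SD between repeat spots, a grey band from the 5th to the 95th percentile of all genes, and dashed lines at 1 log2 unit. GPD1 lies outside the band on the low side for Y5 minus G0 (−2.47) and on the high side for Y10 minus Y5 (1.43). Also outside on the high side are GPP1 for Y5 minus G0 (1.01) and GPP2 for Y10 minus Y5 (1.11).

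For Y5 minus G0, 3 of the 10 genes were at least 1 log2 unit lower (GPD1, GPP2 and STL1) and 1 was at least 1 higher (GPP1). Over all 5546 genes 10.5% were that much lower and 4.02% that much higher, 14.5% in all. The median over the 10 genes was −0.45, against −0.01 over all genes, and −0.16 with the first spot of each gene only. STL1 (−1.05) and GPP1 (1.01) stood close to the fixed size, and with 10 genes these counts describe the group and carry no test. For Y10 minus G0, 1 of 8 genes (GPD1) was at least 1 lower and 0 were higher. Of all 4427 genes 12.1% were that much lower and 6.51% higher (18.6% in all), so the count is near the share over all genes and is no result about these 8. The median was −0.39, against −0.03 over all genes, and it moved to −0.04 with the first spot of each gene only, −0.06 after quantile normalization and −0.15 with the arrays scaled to one spread. Under that scaling the gene past 1 log2 unit was STL1 (−1.03) rather than GPD1 (−0.54). For Y10 minus Y5, 2 of 8 genes (GPD1 and GPP2) were at least 1 higher and 0 lower, against 3.77% and 5.3% of 4435 genes (9.06% in all), with a median of 0.06 against 0.01. The comparisons share arrays, so a low or high value on 1 array enters 2 of them. For GPD1 and GPP2 the low Y5 value is in both Y5 minus G0 and Y10 minus Y5.

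The order of the 10 genes was not the same on each array. GPD1 (1.91) and GPP2 (1.03) led on G0 and GUP2 (−0.61) was last. The SD of a gap between 2 single spots was 0.641 on that array, and the gap between GPD1 and GPP2 (0.88) exceeded it. The gap between GUT1 and GUP2 (0.64) exceeded the SD of 0.555 that applies because GUP2 is the mean of 2 spots, and the other gaps between neighbours were smaller than their SD. From GPP1 (0.36) down to GUT1 (0.03), 6 genes lay so close that their order means little. GPP1 and GPD2 led on Y5, where GPD2 stood 0.61 above FPS1, against an SD of 0.557, and STL1 was last. On Y10, GPP2 (0.89), GPD1 (0.87) and GPD2 (0.66) led, and GUT2 and STL1 were last at −0.71 each. No gap between neighbours on Y10 exceeded the SD of 0.607.

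The genes with the most similar values over the 3 arrays were found by Euclidean distance among 4424 other genes. GPD1 had few near it. Its closest were HXK1, a hexokinase (distance 0.48, with 1.98 for G0, −0.09 for Y5 and 0.82 for Y10), and DDR48, a stress-induced gene (0.49), and these were the only 2 within 0.5. GPP2 had 7 genes within 0.5, led by HSP42, a small heat shock protein (distance 0.22, with 0.94 for G0, −0.21 for Y5 and 0.69 for Y10), and AIM17 (0.34). The other genes lay in crowded ranges, with 124 genes within 0.5 of STL1 and 586 of GUP2, where the nearest gene is not distinguishable from many others. There the closest were GRX2, a glutaredoxin, and COX5A, of cytochrome c oxidase, for STL1, DMO1 and FMP40 for GUT1, PST1, a cell wall protein, and SNF2, of chromatin remodelling, for GPD2, PHO87, a phosphate transporter, and BDF1 for GUP1, and CDA2, a chitin deacetylase, and HUA1 for GUP2. For GUT2 the closest were DLD1, a mitochondrial D-lactate dehydrogenase, and IAH1, but its G0 value is the mean of spots far apart, so neither spot has the values matched. The distances of GPD1, GPP2 and GUT1 also use Y10 values from places where the renumbering matched weakly. On every array the SD of a gap between 2 single spots exceeded the radius of 0.5, the lowest being 0.557 for Y5. The few genes within 0.5 of GPD1 and GPP2 are therefore not distinguishable from genes somewhat further off either. Over 3 arrays such likeness is a description of these values and nothing more.

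The enzymes on either side of the glycerol route were also followed. In the route from glycerol through dihydroxyacetone, YPR1, a reductase, differed by −2.57 for Y5 minus G0 and −2.48 for Y10 minus G0, with log2 ratios of 1.79 (G0), −0.79 (Y5) and −0.69 (Y10). GCY1, the proposed glycerol dehydrogenase, differed by −1.06 and −0.74. Of the dihydroxyacetone kinases, DAK1 differed by −0.60 and −0.9995 (just short of the fixed size) and DAK2 by 0.41 and 0.57. TPI1, which interconverts dihydroxyacetone phosphate and glyceraldehyde 3-phosphate, differed by −2.44 and −2.76, and FBA1, aldolase, by −1.47 for Y5 minus G0. The dehydrogenases that pass NADH to the respiratory chain stayed within 1 log2 unit. NDE1, on the outer face of the inner membrane, had values of 1.05 (G0), 1.18 (Y5) and 1.75 (Y10). NDI1, on its inner face, had 1.15 (G0), 0.67 (Y5) and 1.18 (Y10).

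Glycerol 3-phosphate also feeds lipid synthesis. Of 10 genes of that branch, 2 were at least 1 log2 unit lower on Y5 than on G0 and 0 were higher, against 10.5% and 4.02% of all genes, with a median of −0.39. These were AYR1, which makes lysophosphatidic acid from its dihydroxyacetone form, at −1.70 and GPT2, a glycerol 3-phosphate acyltransferase, at −1.22, whereas the other acyltransferase, SCT1, stood at −0.37. AYR1 and GPT2 had no spot placed on Y10, so neither is among the 8 genes measured there. For Y10 minus G0, 1 of 8 was lower by that much, near the 12.1% of all genes, and this was PGC1, a phosphatidylglycerol phospholipase, at −1.61. PGC1 had 2 spots, of which 1 was placed on Y10.

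The HOG pathway is the osmotic stress cascade that controls GPD1, GPP2 and STL1. Of its 21 genes 1 was at least 1 log2 unit higher on Y5 than on G0, SMP1, a transcription factor (1.28), and 1 lower, OPY2, a membrane anchor (−1.05), with a median of 0.12, where 14.5% of all genes were past this size either way. For Y10 minus G0 these 2 were the ones past the fixed size among 14 measured, against 18.6% of all genes, at 1.06 and −1.07, and OPY2 had 1 of its 2 spots on Y10. The kinase HOG1 itself differed by 0.12 for Y5 minus G0 and the factor HOT1, which acts on GPD1 and STL1, by 0.44 and, for Y10 minus G0, 0.95. Among 4 aquaporins and FPS1 regulators measured on both Y5 and G0, 0 reached 1 log2 unit, against 14.5% of all genes either way. Among 14 regulators of glycerol use genes, HAP4, the activator subunit for respiratory genes, was 1.11 higher on Y5 than on G0 and 0 were as much lower, against 14.5% of all genes either way. For Y10 minus G0, 0 of 12 passed, against 18.6% of all genes, and HAP5 came nearest at −0.99. HAP4 had no spot placed on Y10 and is not among these 12. ADR1 and CAT8, activators of nonfermentable carbon genes, differed by 0.59 and 0.45 for Y5 minus G0, and by 0.09 and 0.52 for Y10 minus G0. ADR1 had 1 of its 2 spots on Y10. The lowest of the 14 for Y5 minus G0 were SNF4 (−0.83) and INO4 (−0.76), whereas INO2 differed by 0.76. Of the 14, 10 were above 0 and 4 below, against 2751 above and 2795 below over all 5546 genes.

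**Figure D4:**
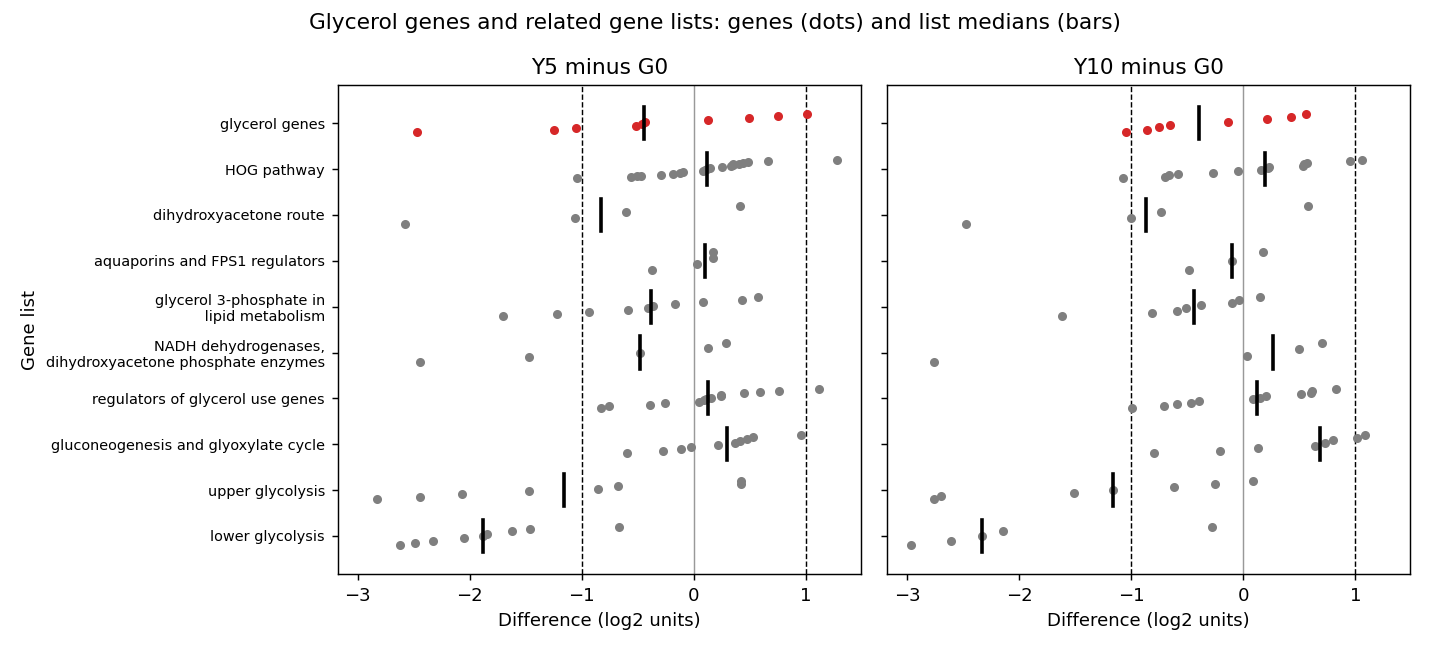
Differences in log2 units (horizontal axes) for Y5 minus G0 and Y10 minus G0 of the glycerol genes (red) and of related gene lists (grey), each dot a gene and each bar a list median. The glycerol genes spread over both sides of 0 with medians of −0.45 and −0.39, whereas lower glycolysis lies wholly below 0 on both.

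Set beside the neighbouring carbon pathways, the median of the glycerol genes lay between theirs, while the single genes ran from −2.47 to 1.01 for Y5 minus G0. For Y5 minus G0 the median was −0.45 for the 10 glycerol genes, 0.29 for 10 genes of gluconeogenesis and the glyoxylate cycle, −1.16 for 8 genes of upper glycolysis and −1.88 for 9 genes of lower glycolysis. For Y10 minus G0 it was −0.39 over 8 glycerol genes, and 0.69 over 8, −1.16 over 7 and −2.33 over 5 in the same lists. In the gluconeogenesis and glyoxylate list 6 of 10 genes were above 0 for Y5 minus G0, against 2751 of 5546 over all genes. The values in that list ran from −0.60 to 0.96. No difference between these lists was tested.

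**Figure D5:**
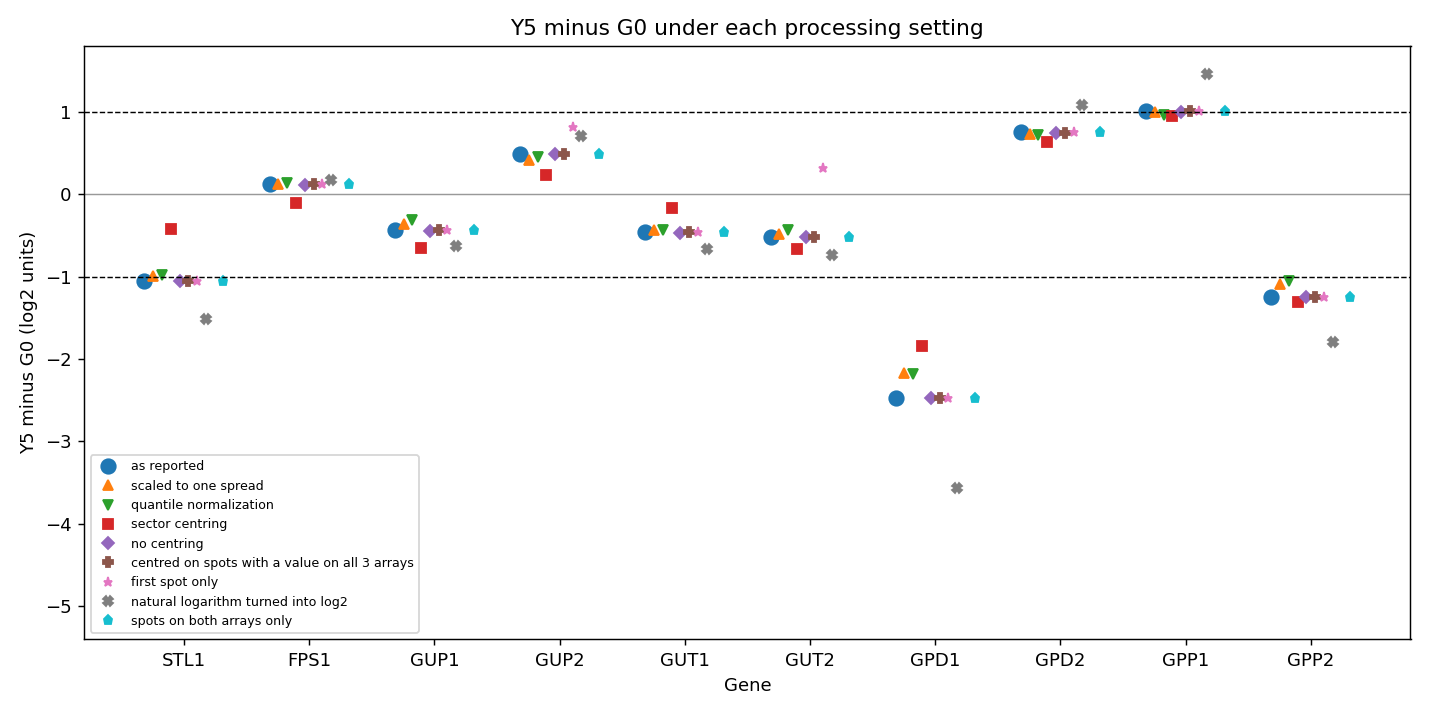
Y5 minus G0 in log2 units (vertical axis) of each glycerol gene (horizontal axis) under each processing setting (symbols), with dashed lines at 1 log2 unit. GPD1 lies between −3.57 and −1.85 and GPP2 between −1.80 and −1.05 in all of them, whereas STL1 moves to −0.43 with sector centring and GUT2 to 0.32 when only its first spot is used.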

How the data were processed

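Two-colour arrays of 3 samples were used, 1 per group. The deposited table holds 1 log ratio per spot and array, taken as log2. The labels used here do not state its base, centring or direction. No intensities were used, so depth and signal over background are unknown, and precision is limited by having 1 array per group. The medians of the deposited columns were 0.0735 (G0), 0.067 (Y5) and 0.071 (Y10). Of 8832 spots, 6623 had 1 gene symbol in the platform annotation, 0 had several and 2209 had none. By gene identifier, all 5574 genes were found in RefSeq's table for assembly R64.

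Y10 was renumbered by sector, without the last 60 spots of each sector, which left 6008 spots. Arrays were centred on their medians and spots averaged per gene (Python 3.11.15, pandas 2.3.3). A difference of 1 log2 unit was the fixed size, and no test was possible. The steps were run on simulated data with a spot error smaller than that between repeat spots here. The simulated Y10 was laid out by the same numbering rule, so this run could not check the rule on the real array. Text named every glycerol gene, and for each on all 3 arrays the 2 nearest genes by distance. From the related lists it named genes past 1 log2 unit for Y5 minus G0 or Y10 minus G0 (only some for the carbon pathways). Outside those pathways, the related genes past it for Y10 minus Y5 were HAP5 (−1.08) and PGC1 (−1.025). Extremes of the lists were named only in part. A few other list genes were named, most for their role (HOG1, SCT1, DAK1, DAK2, NDE1, NDI1, ADR1, CAT8, INO2, INO4). The genes and lists were chosen with earlier results of these data known. No sequences were printed, as none was among the tables used here.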

Additional observations from a re-analysis of the deposited data

How the results depend on the processing

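No result turned its sign among differences past 1 log2 unit. The share of all genes past 1 log2 unit also changed with the setting and is given in brackets. The 4 glycerol genes past 1 log2 unit for Y5 minus G0 (14.5%) became 2 after quantile normalization (12.4%) and 2 with sector centring (13.1%). For Y10 minus G0, the count of 1 (18.6%) became 0 after quantile normalization (19.1%) and 0 with sector centring (14.8%). With the values read as natural logarithms it became 3 of 8, near the share of 33.9% over all genes under that reading. It became 2 with only spots on both arrays (18.9%), an alternative chosen after seeing the data. For Y10 minus Y5 the count of 2 (9.06%) became 1 with sector centring (6.16%). The other counts were within 1.5 times, although with the arrays scaled to one spread the gene counted for Y10 minus G0 was STL1 in place of GPD1. No median moved by more than the SD of a single spot, which is a loose bound for a median. Over all settings the median of the glycerol genes ranged from −0.64 to −0.16 for Y5 minus G0, from −0.57 to −0.04 for Y10 minus G0 and from −0.01 to 0.19 for Y10 minus Y5. Differences past 1 log2 unit in every alternative run were those of GPD1 and GPP2 for Y5 minus G0 (8 alternatives) and of GPD1 for Y10 minus Y5 (9 alternatives). Not all of these runs could change that outcome. GPD1 and GPP2 have 1 spot each, so the choice of spots left their values as they were. Reading the values as natural logarithms could only enlarge them. No alternative changed the inferred numbering of Y10, so its weak match around GPD1 was not tested by them. With the last 60 spots of each Y10 sector added, GPP1 read 0.29 on Y10 and differed by −0.07 from G0 and −1.08 from Y5, in the sector that also matched poorly for GPP2. FPS1 had no Y10 value under any alternative. No leave-one-out or block could be run with 1 array per group. No paired analysis was possible because each group is 1 array.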
